A study of Rattus norvegicus with 20 samples.

Results

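The neuromuscular junction and denervation genes are 10 genes of the nerve-muscle synapse or of the response of muscle to loss of its nerve. Some of them are also made by other cells. They were chosen by name, as the probe sets whose gene symbol in the platform annotation is Chrna1, Chrnb1, Chrnd, Chrne, Chrng, Musk, Rapsn, Dok7, Ncam1 or Runx1. All 10 were measured, by 1 probe set each, among 15049 probe sets with a gene name, which stand for 15037 genes. Vocal folds (VFs) of 20 adult male Sprague-Dawley rats were profiled on rat Affymetrix arrays, 1 array for each animal. Groups of 5 animals were examined at 1 week, 4 weeks and 8 weeks after injury, and 5 uninjured animals served as the control. Injury consisted of stripping the lamina propria, the loose connective tissue of the fold, from the thyroarytenoid muscle beneath it. The methods describe an injury of 1 or both folds without saying which animal had which, and the labels state that both folds were dissected, so a sample may hold an uninjured fold. No genetic alteration or drug treatment distinguishes the groups. Values are log2 RMA signals, so a difference of 1 is a doubling.

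At the neuromuscular junction, acetylcholine from the motor nerve opens a channel of alpha, beta, delta and either gamma or epsilon subunits. Fetal muscle uses the gamma subunit, and epsilon takes its place at the mature endplate. Nerve-derived agrin acts through LRP4 on the kinase MuSK, whose adaptor DOK7 and the scaffold rapsyn hold the receptors in dense clusters under the nerve terminal. When a muscle loses its nerve, fibres are known to make several but not all receptor subunits, MuSK, NCAM and RUNX1 along their whole length. This response was studied mainly in rodent limb muscle. The laryngeal muscles are innervated by branches of the vagus nerve.

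The promoters of the 5 receptor subunits are shown because E-boxes and an Ets site named the N-box are the elements through which muscle and synapse-specific transcription of these subunits has been studied in rodents. Each runs 5′ to 3′ from 250 bases before the RefSeq start to 50 bases after it in the GRCr8 build. Capitals mark CANNTG, the E-box, which reads the same as a pattern on both strands, and CCGGAA or its reverse complement TTCCGG, the N-box.
Chrna1 promoter, chr3:78877304-78877603, minus strand: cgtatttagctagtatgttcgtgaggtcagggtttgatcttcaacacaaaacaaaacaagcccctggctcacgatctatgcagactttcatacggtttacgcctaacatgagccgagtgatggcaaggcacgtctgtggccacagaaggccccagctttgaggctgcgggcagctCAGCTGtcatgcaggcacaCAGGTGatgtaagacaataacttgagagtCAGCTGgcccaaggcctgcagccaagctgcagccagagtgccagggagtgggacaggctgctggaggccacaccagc
Chrnb1 promoter, chr10:55015058-55015357, minus strand: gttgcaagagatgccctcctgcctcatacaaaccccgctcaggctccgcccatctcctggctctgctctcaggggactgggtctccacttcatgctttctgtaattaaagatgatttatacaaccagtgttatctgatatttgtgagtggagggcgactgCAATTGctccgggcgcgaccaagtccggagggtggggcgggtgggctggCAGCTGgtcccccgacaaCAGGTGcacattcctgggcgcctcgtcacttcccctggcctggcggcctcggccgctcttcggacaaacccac
Chrnd promoter, chr9:95310066-95310365, plus strand: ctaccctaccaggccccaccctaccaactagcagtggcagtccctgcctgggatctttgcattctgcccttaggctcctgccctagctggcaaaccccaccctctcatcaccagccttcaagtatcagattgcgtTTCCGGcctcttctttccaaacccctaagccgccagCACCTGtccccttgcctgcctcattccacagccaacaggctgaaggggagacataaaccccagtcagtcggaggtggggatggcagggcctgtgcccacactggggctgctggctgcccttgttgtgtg
Chrne promoter, chr10:55834105-55834404, minus strand: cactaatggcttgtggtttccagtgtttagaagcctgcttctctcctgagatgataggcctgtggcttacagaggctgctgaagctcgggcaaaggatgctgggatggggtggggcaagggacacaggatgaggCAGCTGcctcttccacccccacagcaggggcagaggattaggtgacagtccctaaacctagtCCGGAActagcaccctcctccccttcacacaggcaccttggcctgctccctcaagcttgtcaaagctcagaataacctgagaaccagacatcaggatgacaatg
Chrng promoter, chr9:95325734-95326033, plus strand: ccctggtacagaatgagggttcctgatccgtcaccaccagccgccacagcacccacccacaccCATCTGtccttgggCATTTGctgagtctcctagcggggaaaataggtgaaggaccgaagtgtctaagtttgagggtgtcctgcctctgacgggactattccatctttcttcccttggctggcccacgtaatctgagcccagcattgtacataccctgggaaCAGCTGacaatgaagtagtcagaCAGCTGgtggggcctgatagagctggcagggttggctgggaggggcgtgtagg
An E-box pattern occurred in the promoters of all 8 members that RefSeq promoters were matched to, and in 72.1% of 33469 promoters of the same length. The form CAGCTG, which is contained in CANNTG, was found in 5 of the 8 and in 15.1% of all promoters. Chrng held 4 E-box patterns, Chrna1 and Chrnb1 held 3 each, and Chrnd and Chrne held 1 each. CCGGAA on either strand was found in 2 of the 8, Chrne (54 bases before the start) and Chrnd (115 bases before it), and in 15.0% of all promoters. The match is one of letters, and no binding was measured. Rapsn and Ncam1 were not matched.

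Transcripts of skeletal muscle were measured beside the members. Acta1 (skeletal alpha-actin) had a mean signal of 11.38 ± 0.14 at 1 week, 11.03 ± 0.45 at 4 weeks, 10.82 ± 0.95 at 8 weeks and 11.43 ± 0.75 in the control (SD, n = 5 each). The mean over 12 measured genes of adult skeletal muscle was 9.71 ± 0.18 at 1 week, 9.48 ± 0.40 at 4 weeks, 9.23 ± 1.17 at 8 weeks and 9.82 ± 0.91 in the control. It was lowest in replicate 3 of the 8-week group, at 7.20, and in control replicate 3, at 8.31, whose array median of 4.58 also lay below the 4.83 to 4.94 of the other arrays. The injured groups and the control differed in more than muscle. The manufacturer's hybridization controls averaged 10.19, 10.09 and 10.07 at 1, 4 and 8 weeks and 9.25 in the control, without overlap, and the background probe sets averaged 3.39, 3.30, 3.26 and 2.70 in the same order. Prolactin, a pituitary hormone, had a Prl signal of 2.95 to 4.78 on the injured arrays and 10.76 to 12.38 on the control arrays. In a list named after its values were seen, 3 of 7 pituitary hormone genes were called lower at each time after injury. The share of all probe sets called lower was 10.2%, 5.46% and 4.65% at 1, 4 and 8 weeks. The mean of the 7 pituitary genes lay between 3.53 and 4.40 on the injured arrays and between 5.06 and 6.75 on the control arrays. The part of these differences in the results that follow was not tested beyond the fits named beside them. In whole tissue, fewer muscle fibres or endplates and less RNA in each of them cannot be told apart.

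The first question was whether the 10 genes were higher or lower after injury than in uninjured VFs. Of the tests of members against control 8 passed the threshold, and each was lower after injury. Chrnb1 and Chrne fell at 1 week, and Chrnb1, Rapsn and Ncam1 fell at both 4 and 8 weeks. With limma, adjusted over all 15049 probe sets, 2 of 10 members were called lower at 1 week, where 10.2% of all probe sets were called lower and 21.3% were called in either direction. At 4 weeks 3 of 10 were called lower against 5.46% of all probe sets (13.0% in either direction), and at 8 weeks 3 of 10 against 4.65% (11.6%). None was called higher in any of the 3 comparisons, and 2, 6 and 5 members had an unadjusted p under 0.05, each of them lower, which was so in either direction for 35.0%, 28.8% and 26.7% of all probe sets. The median log2 fold change of the members was -0.36, -0.87 and -0.86 at 1, 4 and 8 weeks, and that of all probe sets was 0.02, 0.04 and 0.04. For 0 of the 10 members did every injured array lie below every control array in any of these comparisons, which was so for 3.78%, 2.11% and 1.93% of all probe sets. The 3 comparisons share the same 5 control arrays and are not independent of one another.

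**Figure D1:**
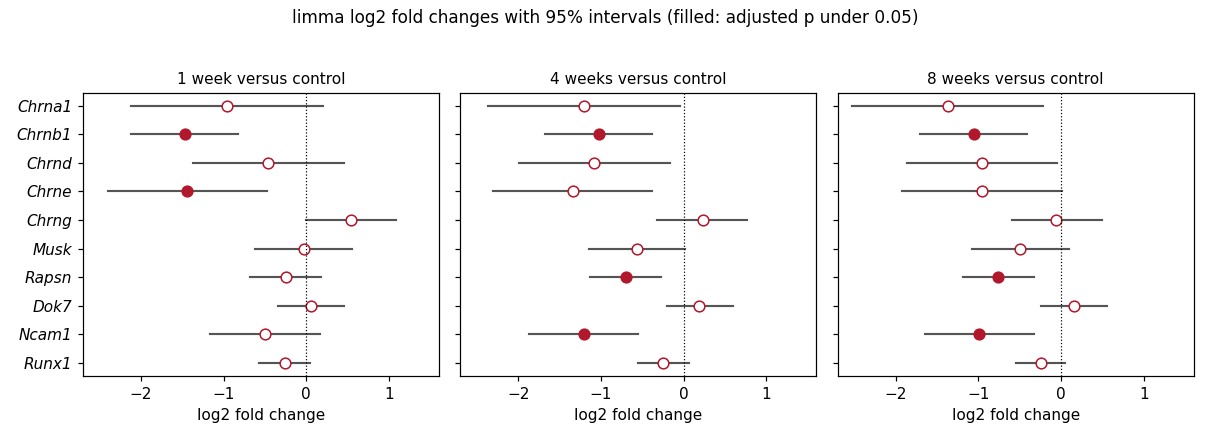
The log2 fold change of each of the 10 members (points) against control with its 95% confidence interval (lines) at 1, 4 and 8 weeks, filled where the limma adjusted p was under 0.05. The 8 filled points all lie to the left of 0, and Chrng and Dok7 are the members whose points lie to the right of it at 1 and 4 weeks.

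The counts depended on single arrays. Without control replicate 3, 4 members were called lower at 1 week and 7 at each of 4 and 8 weeks, while 2538, 1697 and 1508 of the 15049 probe sets were called lower at 1, 4 and 8 weeks. At 1 week the count was 1 without control replicate 2, 4 or 5, and also without 1-week replicate 1, 2, 4 or 5. At 4 weeks it was 1 without control replicate 2, 4 or 5, and also without 4-week replicate 2. At 8 weeks it was 0 without control replicate 5 or 8-week replicate 4, and 1 without control replicate 2 or 4 or 8-week replicate 2 or 3. With the hybridization controls as a covariate, 1, 0 and 0 members and 82, 10 and 9 of all probe sets were called at 1, 4 and 8 weeks. Each member call lost in that fit had a larger fall than without the covariate, from -0.73 for Rapsn at 4 weeks to -3.13 for Chrne at 1 week. These controls did not overlap between injured and control arrays, so that fit can hardly separate them from injury.

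Among the receptor subunits, Chrnb1 was called lower at each time. It encodes the beta subunit, which is part of both the fetal and the adult receptor. Its log2 signals were 4.53, 4.42, 4.74, 4.19 and 4.54 at 1 week, 4.42, 4.69, 4.93, 5.38 and 5.17 at 4 weeks, 5.43, 5.14, 4.02, 4.98 and 4.91 at 8 weeks, and 5.73, 6.37, 4.55, 6.22 and 6.90 in the control. Of the 5 arrays at 1 week, 4 lay below every control array, and the remaining one exceeded only control replicate 3. At 4 and at 8 weeks the groups overlapped with the control through that same control array, with 1 array of 5 below all controls at each time. Chrnb1 fell by 1.47 at 1 week (standard error, SE, 0.31, limma adjusted p = 0.0023, 95% confidence interval, CI, -2.12 to -0.82), and every one of the 20 fits that left out 1 array kept this call. It fell by 1.03 at 4 weeks (limma adjusted p = 0.033, 95% CI -1.68 to -0.38) and by 1.06 at 8 weeks (limma adjusted p = 0.031, 95% CI -1.71 to -0.41). The limma adjusted p of Chrnb1 at 4 weeks was 0.087, 0.073 and 0.079 without control replicates 2, 4 and 5, and 0.074, 0.071 and 0.055 without replicates 1, 2 and 3 of the 4-week group. At 8 weeks it was 0.084, 0.070 and 0.077 without control replicates 2, 4 and 5, and 0.092 and 0.052 without replicates 3 and 4 of the 8-week group.

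**Figure D2:**
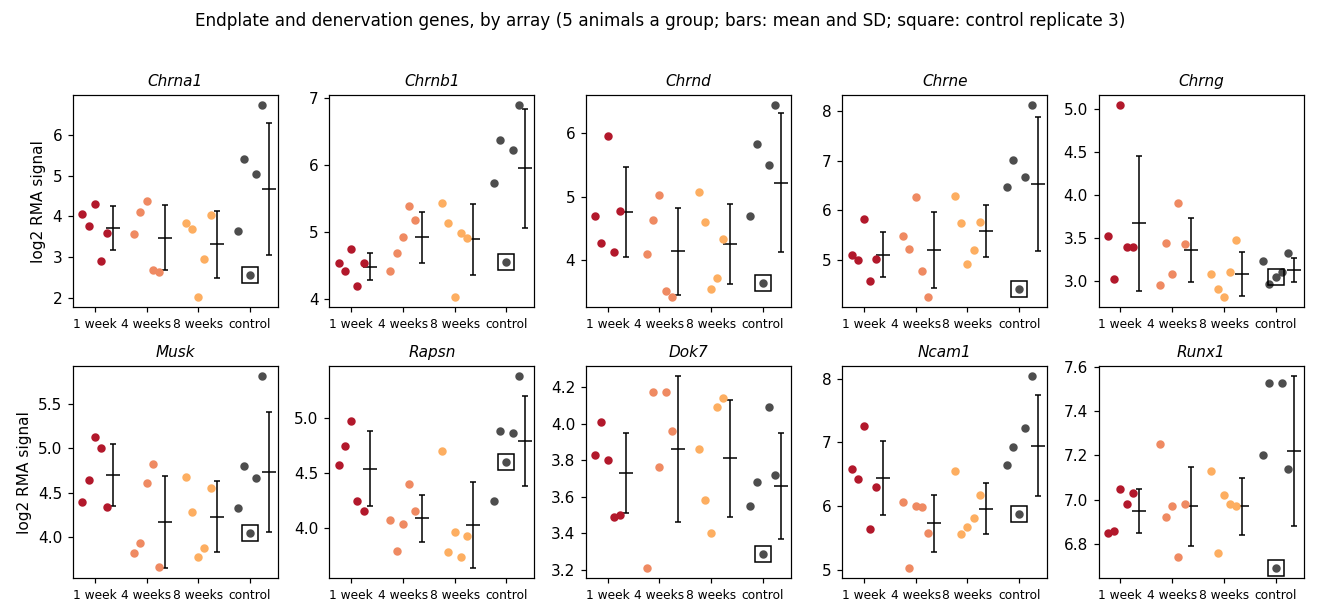
The log2 RMA signal of each member on each of 20 arrays (points), with the mean and SD of each group (bars), at 1, 4 and 8 weeks after injury and in the control, with a square around control replicate 3. Control replicate 3 was the lowest control array for 8 of the 10 members, and the other control arrays of Chrnb1 lie above all injured arrays.

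Chrne encodes the epsilon subunit of the adult endplate receptor. Its signals were 5.09, 5.0, 5.82, 4.56 and 5.01 at 1 week, 5.47, 5.22, 6.27, 4.76 and 4.24 at 4 weeks, 6.28, 5.74, 4.92, 5.20 and 5.75 at 8 weeks, and 6.46, 7.02, 4.41, 6.66 and 8.12 in the control. All 15 injured arrays lay below 4 of the control arrays, and control replicate 3 was below all 10 arrays of the 1-week and 8-week groups. Chrne fell by 1.44 at 1 week (SE 0.46, limma adjusted p = 0.030, 95% CI -2.40 to -0.48). At 4 weeks its log2 fold change was -1.34 (limma adjusted p = 0.058, 95% CI -2.31 to -0.38), and at 8 weeks it was -0.96 (-1.92 to 0.01, adjusted p = 0.19). The limma adjusted p at 1 week was 0.076, 0.058 and 0.087 without control replicates 2, 4 and 5, and 0.051, 0.060, 0.077 and 0.052 without replicates 1, 2, 4 and 5 of the 1-week group. Without control replicate 3 Chrne was called at all 3 times, with log2 fold changes of -1.97, -1.87 and -1.49 (limma adjusted p = 0.00077, 0.0021 and 0.011), and without replicate 3 of the 4-week group its adjusted p at 4 weeks was 0.033.

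Chrna1 and Chrnd, which encode the alpha subunit that binds acetylcholine and the delta subunit beside it, did not pass the threshold. The Chrna1 signals were 4.05, 3.77, 4.30, 2.89 and 3.60 at 1 week, 3.57, 4.10, 4.37, 2.67 and 2.64 at 4 weeks, 3.84, 3.69, 2.01, 2.95 and 4.04 at 8 weeks, and 3.65, 5.41, 2.55, 5.04 and 6.74 in the control. The control arrays spanned more than 4 log2 units, with control replicates 2, 4 and 5 above every injured array and replicate 3 below 14 of the 15. The log2 fold changes of Chrna1 were -0.96, -1.21 and -1.37 at 1, 4 and 8 weeks (SE 0.56 each, limma adjusted p = 0.23, 0.15 and 0.11). Chrnd ranged from 4.13 to 5.95 at 1 week, from 3.42 to 5.02 at 4 weeks, from 3.55 to 5.08 at 8 weeks and from 3.64 to 6.44 in the control. Its log2 fold changes were -0.46, -1.08 and -0.96 (SE 0.44 each, limma adjusted p = 0.49, 0.10 and 0.16). Without control replicate 3, Chrna1 was called lower at all 3 times (limma adjusted p = 0.035, 0.023 and 0.015) and Chrnd at 4 and 8 weeks (0.017 and 0.028). Without control replicate 5 the log2 fold changes of Chrna1 shrank to -0.44, -0.69 and -0.86 (limma adjusted p = 0.56, 0.38 and 0.28) and those of Chrnd to -0.15, -0.78 and -0.66 (0.83, 0.23 and 0.34). Chrnd at 1 week was also -0.30 without control replicate 2 and -0.75 without 1-week replicate 3 (adjusted p = 0.70 and 0.23). The mean of Chrna1 stood 0.33, 0.17 and 0.04 above that of the background probe sets at 1, 4 and 8 weeks and 1.98 above it in the control, so low values of Chrna1 after injury were close to background.

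The fetal subunit was not called at any time. Chrng encodes the gamma subunit, and its signals were 3.52, 3.02, 5.05, 3.39 and 3.39 at 1 week, 2.95, 3.44, 3.08, 3.91 and 3.43 at 4 weeks, 3.08, 2.91, 2.81, 3.10 and 3.48 at 8 weeks, and 3.23, 2.96, 3.05, 3.11 and 3.33 in the control. Replicate 3 of the 1-week group stood apart at 5.05, with the next array at 3.91. All other arrays were near the background probe sets, whose mean Chrng exceeded on 3, 3 and 1 of 5 arrays at 1, 4 and 8 weeks and on 5 of 5 control arrays. The log2 fold changes were 0.54, 0.23 and -0.06 (SE 0.26 each, limma adjusted p = 0.15, 0.60 and 0.92). The value at 1 week was 0.20 in the fit that left out 1-week replicate 3. Measured from the background mean of its array, Chrng averaged 0.29, 0.07 and -0.19 at 1, 4 and 8 weeks and 0.43 in the control. The background mean was itself higher after injury, at 3.39, 3.30 and 3.26 against 2.70 in the control. Every member averaged lower after injury by this measure, so it cannot decide whether Chrng rose.

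The array with the high Chrng was also the brightest of the 20 for 5 genes of differentiating or immature muscle, Myog, Myh3, Myh8, Myl4 and Tnnt2. Myog encodes myogenin, a transcription factor of differentiating myoblasts and of denervated muscle, and Myh3 encodes embryonic myosin heavy chain. In replicate 3 of the 1-week group Myog was 5.98, with the next array at 5.23, and Myh3 was 10.19, with the next at 8.55. Myog had a mean of 5.04 ± 0.58 at 1 week and 4.11 ± 0.65 in the control (SD, n = 5 each), and it rose by 0.93 (limma adjusted p = 0.030). This call was lost without control replicates 1, 3 and 4 (adjusted p = 0.067, 0.083 and 0.054) and without 1-week replicates 2 and 3 (0.067 and 0.093). Myh3 had a mean of 8.11 ± 1.38 at 1 week and 5.74 ± 0.32 in the control, without overlap, and it rose by 2.37 (limma adjusted p = 0.00054), or by 1.85 without that array. That array was the highest of its group for 9 of the 10 members.

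**Figure D3:**
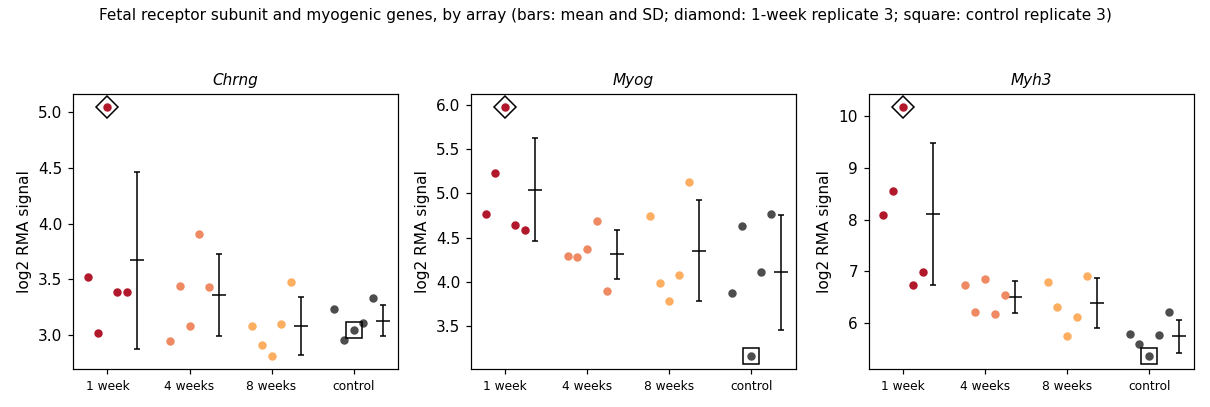
The log2 RMA signals of Chrng, Myog and Myh3 on each of 20 arrays (points), with the mean and SD of each group (bars), a diamond around replicate 3 of the 1-week group and a square around control replicate 3. The diamond marks the highest of 20 arrays for Chrng (5.05), Myog (5.98) and Myh3 (10.19).

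Of the 3 genes that gather receptors under the nerve, Rapsn alone passed the threshold. It encodes rapsyn, the scaffold that binds the receptor from inside the fibre. Its signals were 4.57, 4.75, 4.97, 4.25 and 4.16 at 1 week, 4.08, 3.80, 4.04, 4.40 and 4.16 at 4 weeks, 4.70, 3.79, 3.97, 3.74 and 3.93 at 8 weeks, and 4.25, 4.88, 4.60, 4.86 and 5.38 in the control. At 4 and at 8 weeks 4 of 5 arrays lay below every control array, and at 1 week 2 of 5 did. Rapsn stood 1.15, 0.80 and 0.77 above the background mean of its array at 1, 4 and 8 weeks and 2.09 above it in the control. The background mean was itself higher after injury. Rapsn fell by 0.70 at 4 weeks (SE 0.21, limma adjusted p = 0.030, 95% CI -1.13 to -0.27) and by 0.76 at 8 weeks (-1.19 to -0.33, adjusted p = 0.020), and its log2 fold change at 1 week was -0.25 (adjusted p = 0.41). The limma adjusted p at 4 weeks was 0.065, 0.059 and 0.072 without control replicates 2, 4 and 5 and 0.077 and 0.056 without replicates 2 and 3 of the 4-week group. At 8 weeks it was 0.051 without control replicate 5 and 0.056 and 0.054 without replicates 2 and 4 of the 8-week group. With only the 2 groups compared the limma adjusted p was 0.051 at 4 weeks and 0.054 at 8 weeks. At 4 weeks it was 0.054 with a replicate block, 0.052 by the methods' one-way analysis and 0.42 with the hybridization covariate. The last was 0.36 at 8 weeks. The interval at 4 weeks overlapped that of Musk (-1.15 to 0.02).

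Musk and Dok7 did not pass the threshold at any time. Musk, the receptor kinase that agrin activates, ranged from 4.34 to 5.12 at 1 week, from 3.66 to 4.82 at 4 weeks, from 3.78 to 4.67 at 8 weeks and from 4.05 to 5.81 in the control. Its log2 fold changes were -0.03 (95% confidence interval -0.62 to 0.55), -0.56 (-1.15 to 0.02) and -0.50 (-1.08 to 0.09) at 1, 4 and 8 weeks, with limma adjusted p of 0.95, 0.19 and 0.27. Dok7, the cytoplasmic activator of MuSK, ranged from 3.21 to 4.17 over all injured arrays and from 3.29 to 4.09 in the control, the narrowest spread of group means among the members, at 0.19. Its log2 fold changes of 0.06, 0.19 and 0.15 (limma adjusted p = 0.85, 0.54 and 0.67) had no settled sign. They were -0.38, -0.21 and -0.24 with the hybridization controls as a covariate, and the value at 1 week was -0.02 after quantile normalization. Above the background mean of its array, Dok7 stood 0.34, 0.56 and 0.55 at 1, 4 and 8 weeks and 0.96 in the control. Musk stood 1.31, 0.87 and 0.97 above it after injury and 2.03 in the control. The background mean was itself higher after injury, and its part in these differences was not tested.

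Ncam1 encodes the neural cell adhesion molecule, which marks denervated and regenerating fibres and is also made by nerve, Schwann and endocrine cells. Its signals were 6.59, 6.42, 7.25, 5.64 and 6.30 at 1 week, 6.07, 5.03, 6.0, 5.99 and 5.58 at 4 weeks, 6.55, 5.57, 5.68, 5.82 and 6.17 at 8 weeks, and 6.65, 6.93, 5.88, 7.23 and 8.04 in the control. Every array at 4 and 8 weeks lay below 4 of the 5 controls, and the groups overlapped through control replicate 3 alone. Ncam1 fell by 1.21 at 4 weeks (SE 0.32, limma adjusted p = 0.015, 95% CI -1.87 to -0.55), a call that each of the 20 fits without 1 array kept. It fell by 0.99 at 8 weeks (adjusted p = 0.047, 95% CI -1.65 to -0.33), and its log2 fold change at 1 week was -0.50 (adjusted p = 0.27). The call at 8 weeks held in 5 of the 20 fits without 1 array, those without control replicate 3, 1-week replicate 3 or 4, 4-week replicate 2 or 8-week replicate 1, and the limma adjusted p ranged from 0.009 without control replicate 3 to 0.12 without control replicate 5 or replicate 2 of the 8-week group. Within the control, Prl was brightest in replicate 1, at 12.38, and Ncam1 in replicate 5, at 8.04, and the part of pituitary RNA in the level of Ncam1 was not tested.

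Runx1 encodes a transcription factor that denervated mouse muscle induces, and that blood and epithelial cells also make. It ranged from 6.85 to 7.05 at 1 week, from 6.74 to 7.25 at 4 weeks, from 6.76 to 7.13 at 8 weeks and from 6.69 to 7.53 in the control. The injured arrays all lay within the control range. Its log2 fold changes were -0.26, -0.25 and -0.25 (SE 0.15 each, limma adjusted p = 0.20, 0.28 and 0.29). Without control replicate 3, the lowest of the 20 arrays for Runx1, the adjusted p was 0.023, 0.042 and 0.044. None of 10 leukocyte genes was called by limma at any time. An unadjusted p under 0.05 was reached by 1, 7 and 5 of them at 1, 4 and 8 weeks, all higher. That was so in either direction for 35.0%, 28.8% and 26.7% of all probe sets. The leukocyte list had a median log2 fold change of 0.24, 0.80 and 0.68, and 0 of the 10 lay below 0 at each time. The part of leukocytes in the Runx1 values was not tested. Of 6 epithelial genes 1 fell at each time and 0 rose, where 10.2%, 5.46% and 4.65% of all probe sets were called lower. That gene was Cdh1, an adhesion gene, at -0.84, -0.78 and -0.82 (adjusted p = 0.0026, 0.0082 and 0.0065), while the epithelial list had a median log2 fold change of 0.17, 0.05 and -0.03.

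The second question was whether the genes moved between the injured groups. With limma 0 of 10 members were called at 4 weeks against 1 week, at 8 weeks against 1 week, or at 8 weeks against 4 weeks, where 0.126%, 0.233% and 0.0% of all probe sets were called (0.126%, 0.199% and 0.0% lower). The members with an unadjusted p under 0.05 numbered 2, 2 and 0, against 9.08%, 9.97% and 2.51% of all probe sets, and the methods' one-way analysis also called 0 in each. At 4 against 1 week Rapsn had a log2 fold change of -0.45 (limma adjusted p = 0.52) and Ncam1 one of -0.71 (0.51). At 8 against 1 week the values were -0.51 for Rapsn (0.40) and -0.60 for Chrng (0.46), which was -0.25 without 1-week replicate 3 (0.65). The 95% confidence interval for Chrnb1 was -0.21 to 1.08 at 4 against 1 week and -0.24 to 1.06 at 8 against 1 week, so neither a difference of 0 nor one of 1 was outside it.

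Within groups, Chrnd and Chrne varied together with Chrna1. After each group mean was subtracted, Chrna1 and Chrnd had a Pearson r of 0.91 and a Spearman rho of 0.92 over 20 arrays (permutation test within groups with 100000 resamples, two-sided p = 1e-05 for both, the smallest they can give, adjusted p = 0.0001 and 5e-05 over 10 relations). Chrna1 and Chrne had an r of 0.92 and a rho of 0.90 (permutation p = 2e-05 and 1e-05, adjusted p = 0.0001 and 5e-05). Without control replicates 3 and 5, the arrays farthest from their group mean in Chrna1, r was 0.86 for Chrnd and 0.83 for Chrne. All genes of a pair were read on the same arrays and share their normalization. The variation was not particular to the subunits. As a description, Myh2, a myosin heavy chain gene of adult muscle, had an r of 0.79 with Chrna1, 0.85 with Chrnd and 0.91 with Chrne. With the other members its r was 0.14 to 0.58.

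**Figure D4:**
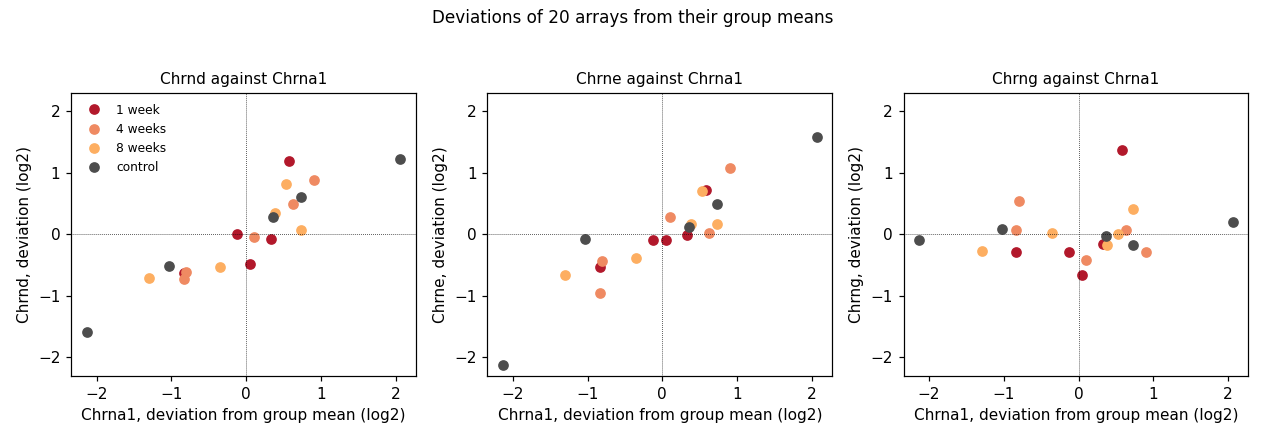
The deviation of each of 20 arrays (points, coloured by group) from its group mean in log2 units for Chrnd, Chrne and Chrng (vertical axes) against Chrna1 (horizontal axis). Chrnd (r = 0.91) and Chrne (r = 0.92) follow Chrna1 across the groups, and Chrng (r = 0.15) does not.

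The relation was looser for the other members. Pearson r with Chrna1 was 0.72 for Chrnb1, 0.70 for Ncam1 and 0.65 for Musk (permutation p = 0.0088, 0.0048 and 0.012, adjusted p = 0.020, 0.016 and 0.020), with rho of 0.47, 0.61 and 0.69 (permutation p = 0.081, 0.014 and 0.0047, adjusted p = 0.14, 0.036 and 0.016). Without control replicates 3 and 5 these r were 0.42, 0.42 and 0.39, so their size rests on those 2 arrays, and the rho were 0.27, 0.46 and 0.58. For Rapsn, Runx1, Dok7 and Chrng r was 0.47, 0.40, 0.35 and 0.15, with permutation adjusted p of 0.12, 0.31, 0.21 and 0.36. The mean of the adult muscle genes had an r of 0.63 with Chrna1 (rho 0.52, permutation p = 0.012 and 0.039, adjusted p = 0.020 and 0.079), and 0.47 without the 2 arrays. As a description, the r of each member with that muscle mean was 0.83 for Chrnb1, 0.36 to 0.63 for Chrna1, Chrnd, Chrne, Musk, Rapsn, Dok7 and Ncam1, 0.33 for Runx1 and 0.10 for Chrng. With the muscle mean as a covariate, 2 members were called lower at 1 week (Chrnb1 and Chrne), 3 at 4 weeks (Chrnb1, Ncam1 and Rapsn) and 2 at 8 weeks (Chrnb1 and Rapsn), where 11.1%, 5.2% and 3.54% of all probe sets were called lower.

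Other genes of the endplate were called about as often as genes in general at 1 week. Of 17 measured genes from a list of 18, limma called 1 higher and 3 lower at 1 week, a share near the 21.3% of all probe sets called then. At 4 and 8 weeks it called 0, against 13.0% and 11.6% of all probe sets. An unadjusted p under 0.05 was reached by 4 and 4 then, against 28.8% and 26.7% of all probe sets. At 1 week Nrg1 (neuregulin 1, a growth factor of nerve and other cells) fell by 0.91 (adjusted p = 0.0021) and Gabpa, the Ets factor that binds the N-box, fell by 0.66 (adjusted p = 0.011). Lrp4, the agrin receptor, fell by 0.61 (adjusted p = 0.044), and Col13a1, a transmembrane collagen of the synapse, rose by 0.55 (adjusted p = 0.030). The calls of Lrp4 and Col13a1 held in 8 and 14 of the 20 fits without 1 array, and those of Nrg1 and Gabpa in all 20. The list had a median log2 fold change of -0.20, -0.08 and -0.11 at 1, 4 and 8 weeks. Agrn, which encodes agrin, and Ache, which encodes acetylcholinesterase, had log2 fold changes at 1 week of -0.20 and -0.28 (adjusted p = 0.46 and 0.60).

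Genes that respond to denervation were taken from a list of 16 without the members, of which 13 were measured. Of these 13, 1 rose and 2 fell at 1 week, again near the 21.3% of all probe sets. At 4 weeks 0 were called and at 8 weeks 1 fell, where 13.0% and 11.6% of all probe sets were called. An unadjusted p under 0.05 was reached by 6 and 3 of them then, against 28.8% and 26.7% of all probe sets. The one that rose was Myog. Ampd3, an AMP deaminase gene induced in denervated rodent muscle, fell by 1.03 at 1 week (limma adjusted p = 0.00055) and by 0.78 at 8 weeks (adjusted p = 0.0093). Hdac4, a deacetylase gene that links denervation to Myog in mouse, fell by 0.64 at 1 week (adjusted p = 0.0019). The median log2 fold change of this list was -0.04, -0.06 and -0.26.

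Lists of muscle and of other cell types were set beside these results, with 21.3%, 13.0% and 11.6% of all probe sets called at 1, 4 and 8 weeks. At 4 and 8 weeks 28.8% and 26.7% of all probe sets had an unadjusted p under 0.05. Of 12 genes of adult muscle, 0 were called at 1 and 4 weeks (0 and 1 had an unadjusted p under 0.05) and 1 fell at 8 weeks, Actn3, a fast-fibre actinin, by 1.38 (limma adjusted p = 0.031), a call lost without control replicate 4 or 8-week replicate 2 or 3 (adjusted p = 0.094, 0.068 and 0.085). Of 8 genes of regenerating muscle other than Ncam1, 3 rose at 1 week and 0 were called at 4 and 8 weeks (0 and 1 had an unadjusted p under 0.05). Besides Myh3 these were Myl4, an embryonic myosin light chain, at 2.17 (adjusted p = 0.0073) and Tnnt2, the troponin T of heart and immature muscle, at 1.53 (adjusted p = 0.015). Tnnt2 was 7.89 in 1-week replicate 3, with the next array at 5.37, and its rise was 0.90 without that array (adjusted p = 0.0089). Of 7 fibroblast matrix genes, 5, 3 and 1 rose at 1, 4 and 8 weeks, led at 1 week by Col1a1, a chain of collagen I, at 1.80 (adjusted p = 8.3e-06). Of 6 cartilage genes, 4, 3 and 4 rose. Of 9 Schwann cell genes 1 rose at 1 week, S100b, at 0.75 (adjusted p = 0.0048), and 0 were called at 4 and 8 weeks (1 and 2 had an unadjusted p under 0.05).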

How the data were processed

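The authors hybridised VF RNA of each animal to an Affymetrix rat array and deposited log2 RMA signals, made per their methods on Clariom S arrays in TAC 4.0.1 with global scaling. The labels name Clariom D arrays and Affymetrix Expression Console. RMA was not run again, no detection calls were made, and 9822 of 24871 probe sets had no gene name and were left out. Groups came from the labels. For the 10 genes with several probe sets the brightest was used. All 4 groups of 5 arrays were fitted together with limma 3.58.1 in R 4.3.3 (lmFit, eBayes), without covariates, the Benjamini-Hochberg adjustment ran over 15049 probe sets in each of 6 comparisons, and 0.05 was the threshold. The fit was tested on simulated data. The number of arrays limits the precision, and the correlation of arrays within a group was 0.947 to 0.986. The members and lists were chosen with earlier results of these data known. Named genes are all members, from each list up to 3 genes by smallest adjusted p against control, list-defining genes, and the 5 genes most like Chrnb1 and Chrna1. Myh2, Prl and the pituitary list were named after their values were seen. Alternatives were other normalizations, array weights, spread models, sample sets, filters, covariates, a replicate block, the methods' one-way analysis, each array left out, and, chosen after seeing the data, the same for list genes called against control and a fit without the 2 arrays of lowest muscle signal. Promoters are RefSeq's, and figures were drawn with matplotlib 3.10.9.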

Additional observations from a re-analysis of the deposited data

Results flagged for a closer look

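In 56 groups of 5 arrays, 4 held an array far from the others by Dixon's criterion, which chance meets in about 1 of 20 groups. Chrng at 1 week had 1 high array, replicate 3 at 5.05, whose gap to its neighbour was 0.756 of the group's range. Rapsn at 8 weeks had 1 high array, replicate 1 at 4.70, with a ratio of 0.758. The mean of the adult muscle genes at 8 weeks had 1 low array, replicate 3 at 7.20, with a ratio of 0.737. Myh2, the myosin heavy chain of fast oxidative fibres, had 1 low control array, replicate 3 at 4.95, with a ratio of 0.756, while the other controls lay between 9.09 and 10.43.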

How the results depend on the processing

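Members called at 1, 4 and 8 weeks numbered 2, 3 and 3. They numbered 4, 7 and 7 with array weights, 1, 1 and 0 with only the 2 groups compared, 1, 0 and 0 with the hybridization controls as a covariate, 1, 1 and 1 by the methods' one-way analysis, 1 at 1 week with an intensity trend and robust prior, and 4, 7 and 5 without the 2 arrays of lowest muscle signal, a fit chosen after seeing the data. The share of all probe sets called lower at 1, 4 and 8 weeks was 10.2%, 5.46% and 4.65% in the fit used above. It was 20.5%, 13.6% and 14.2% with array weights, and 17.0%, 11.3% and 8.16% without the 2 arrays of lowest muscle signal. It was 7.97%, 2.56% and 2.77% with only the 2 groups compared, and 9.22%, 4.4% and 3.56% by the one-way analysis. Leaving out single arrays gave 1 to 4, 1 to 7 and 0 to 7 members. Every member called in any of these fits was lower after injury, and 0 were called between injured groups in all of them. The cause of the differences between fits was not tested. Chrnb1 at 1 week was called in all 13 alternatives and Ncam1 at 4 weeks in 12 of 13. The exception was the hybridization covariate, with a log2 fold change of -1.94 and a limma adjusted p of 0.14. Over all probe sets, the calls at 1, 4 and 8 weeks were 3209, 1952 and 1748, and they were 82, 10 and 9 with that covariate, which moved the median log2 fold change to -0.14, -0.11 and -0.10, and 5214, 3383 and 3619 with array weights. With only the 2 groups compared they were 956 at 4 weeks and 1110 at 8 weeks, and over all 24740 probe sets other than the controls 5583, 3443 and 3019. Higher calls were 52.4%, 57.9% and 60.0%, and 45.4%, 47.3% and 44.6% after median centring.

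Signs that turned belonged to fold changes near 0. Musk at 1 week was 0.011 with the muscle covariate and -0.20 to 0.24 without single arrays, and Chrng at 8 weeks was -0.16 to 0.0095. Dok7 at 1 week was -0.02 after quantile normalization, -0.015 with array weights, -0.38 with the hybridization covariate, -0.032 without the 2 arrays of lowest muscle signal and -0.032 to 0.17 without single arrays. Dok7 was -0.21 at 4 weeks and -0.24 at 8 weeks with the hybridization covariate. Chrng was removed by the filter on the dimmest 25% of probe sets and has no value there.

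Replicate numbers do not mark shared animals, since each array came from its own animal. Same-numbered arrays of different groups had a mean correlation of deviations of -0.019, and 6 of 30 pairs exceeded 0.1. For other-numbered arrays the mean was 0.006, and 31 of 120 pairs exceeded 0.1. With the replicate block 2 members were called at each of 1, 4 and 8 weeks, Rapsn at 4 weeks (limma adjusted p = 0.054) and Ncam1 at 8 weeks (0.062) being lost. In that fit 9.44%, 4.78% and 3.91% of all probe sets were called lower. Background sets a floor for Chrng, Chrna1 and Dok7. Rapsn, Chrnd and Musk stood 0.80, 0.84 and 0.87 above the background mean at 4 weeks and 0.77, 1.0 and 0.97 above it at 8 weeks.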

Other observations

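Nerve-side genes, named here because most members act opposite the nerve terminal, moved in both directions. Of 10 measured genes, limma called 2 higher and 2 lower at 1 week and 2 higher and 1 lower at 4 and at 8 weeks, against 21.3%, 13.0% and 11.6% of all probe sets called. Syt2, a synaptotagmin of fast synapses, rose by 1.04, 0.67 and 0.62 at 1, 4 and 8 weeks (adjusted p = 7.2e-05, 0.0054 and 0.0092), and Nefm, a neurofilament subunit, rose by 0.94, 0.72 and 0.70 (adjusted p = 0.00042, 0.0057 and 0.0079). The background probe sets averaged 3.39, 3.30 and 3.26 at 1, 4 and 8 weeks and 2.70 in the control. Above the background mean of its array, Nefm stood 0.76, 0.64 and 0.65 at 1, 4 and 8 weeks and 0.51 in the control. Syt2 stood 1.51, 1.23 and 1.23 above it after injury and 1.16 in the control. At each time both differences from the control were smaller by this measure than the log2 fold changes. The part of background in these rises was not tested. Snap25, a vesicle fusion protein of nerve and endocrine cells, fell by 1.19, 1.15 and 1.24 (adjusted p = 0.005, 0.011 and 0.0077). Snap25 lay between 3.18 and 3.94 on the injured arrays and between 3.90 and 6.26 on the control arrays. Control replicate 1 was the brightest for both Snap25 and Prl (12.38). Control replicate 3 was next for Snap25, at 5.07, with a Prl of 10.79, while replicate 2 had 4.83 and 12.10. The part of pituitary RNA in the level of Snap25 was not tested. Chat and Slc18a3, which mark cholinergic terminals, had log2 fold changes at 1 week of 0.15 and 0.12 (adjusted p = 0.46 and 0.56). Of 11 nicotinic receptor subunits of neurons, 1 rose at 1 week and at 4 weeks, Chrna6, at 0.57 and 0.51 (adjusted p = 0.0059 and 0.018), the second of them not called without 4-week replicate 4 (0.053). Its mean signal of 2.57, 2.52 and 2.27 at 1, 4 and 8 weeks and 2.0 in the control lay under the background probe sets' mean in each group.

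The genes most like Chrnb1 after group means were subtracted, over 20 arrays, were Cacnb1 (a calcium channel subunit of skeletal muscle, r = 0.96), Sdhd and Fhl1 (0.95 each), and Rtn4 and Atp2a2 (0.94 each). Those most like Chrna1 were Csrp3 (0.90), Pdlim7 (0.88), and Retreg1, Gyg1 and Asb2 (0.87 each). These are the highest of 15037 genes and carry no test.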
